A study of Mus musculus with 4 samples.

Results

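Foxp3, Csf1r, Il12rb2, Alas2 and Ptgdr2 mark different blood cell lineages, and each shares exon bases with a gene on the other strand: Ccdc22, Hmgxb3, Serbp1, Apex2 and Ccdc86 in that order. These 10 genes, in 5 pairs, were taken from the 50600 genes listed for 4 sequencing libraries of mouse T-helper 2 cells. The pairs were chosen by their shared exon bases and with the counts of both genes known, so levels and ratios within the pairs are given as a description, with no test. The libraries form 1 group of primary T-helper 2 cells of strain C57BL/6NJ, all with the same donor identifier, with no age given and sex not collected. File names inside the headers carry the words 16hr, which no label repeats, and the linked protocol describes CD4+ T cell differentiation. The labels number the libraries as biological replicates 1 to 4 but do not say whether they came from separate animals or cultures, so p-values measure only the spread between these libraries, which may be technical. Library totals ran from 1688658 to 2222583 counts.

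T-helper 2 cells are CD4 T cells that make interleukin 4 and act in allergy and in defence against worms. Foxp3 is the transcription factor that defines regulatory T cells, Il12rb2 is the signalling chain of the interleukin 12 receptor and drives T-helper 1 cells, Ptgdr2 is the prostaglandin D2 receptor that T-helper 2 cells carry, Csf1r is the growth factor receptor of macrophages, and Alas2 makes the first step of heme synthesis in red cell precursors. The partners are used by most cell types: Ccdc22 belongs to an endosomal sorting complex, Serbp1 binds mRNA and ribosomes, Apex2 is a DNA repair nuclease, Ccdc86 is a nucleolar protein, and Hmgxb3 carries a DNA-binding domain of the high mobility group type. When exons of a pair of genes lie on the same bases, a sequenced fragment can be given to the right gene only by its strand.

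Which RNA strand the counts stand for decides what every level here means. The headers record that fragments were counted by strand with option 1, the labels do not give the orientation of the libraries, and the tables hold 1 strand only. Genes of any type with an exon opposite another gene held 91.8 ± 1.35% of all counts, and protein-coding genes without one held 7.09 ± 1.38% (SD, n = 4). Among the mitochondrial mRNAs, mt-Nd6, a subunit gene of complex I and the single one on the minus strand, held 109408 counts over the 4 libraries, and the 12 on the plus strand held 12367 together. Should the libraries be oriented the other way, a count of Foxp3 in the shared bases is a fragment of Ccdc22 RNA, and likewise in each pair, and neither the levels nor the ratios measure expression of the gene named. This was not tested, as counts of the other strand were not used here, and every level is that on the counted strand.

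All 10 genes had counts in all 4 libraries, as did 39% of the 21764 protein-coding genes. The markers held 8174 counts over the 4 libraries and the partners 2340. The level used here, RPKM, is the count per kilobase of the gene's annotated exons, scaled to the library total (CPM is the same without length). In this unit Csf1r stood at 105.5 ± 10.6 and Foxp3 at 102.0 ± 4.57 (SD, n = 4), and their libraries overlapped. Below them, with no overlap, came Ptgdr2 at 39.0 ± 6.1 RPKM, and then Il12rb2 at 15.1 ± 1.33 RPKM and Serbp1 at 14.4 ± 3.63 RPKM, which overlapped each other (SD, n = 4). Alas2 followed at 5.92 ± 2.13 RPKM (SD, n = 4). Ccdc86, Apex2, Ccdc22 and Hmgxb3 came last, at 1.67 ± 0.75, 1.03 ± 0.389, 0.959 ± 0.504 and 0.777 ± 0.189 RPKM (SD, n = 4), and each overlapped its neighbours in this order. The label of the set calls the partners housekeeping genes. On the counted strand, with the exon lengths of the files, only Serbp1 of the 5 partners had a level above 3 RPKM in any library. This depends on length. Ccdc22 came to 6.99 ± 3.68 RPKM over bases of no other gene on its strand, and Ccdc86 to 3.22 ± 1.44 RPKM over its longest coding transcript (SD, n = 4). Both lengths were chosen after seeing the data.

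**Figure D1:**
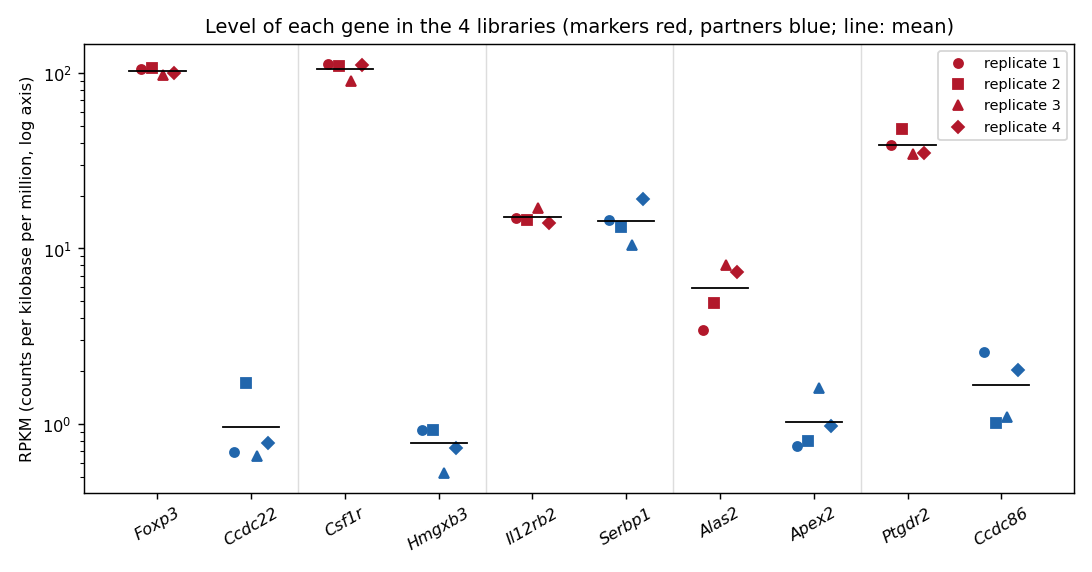
RPKM on a log axis for the 10 genes in the 4 libraries, with markers in red, partners in blue and a black line at the mean. Every library of Foxp3, Csf1r, Alas2 and Ptgdr2 lies above every library of its partner, while the libraries of Il12rb2 (13.9 to 17.0 RPKM) and Serbp1 (10.5 to 19.2 RPKM) overlap.

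Foxp3 lies on the plus strand (mm10, chromosome X, 7579676 to 7595243) and Ccdc22 on the minus strand (7593809 to 7605517), tail to tail. The last exon of Foxp3, 2344 bases long and uninterrupted, runs across 4 exons of Ccdc22, which gives 590 shared bases in 4 segments. None of these bases codes for protein in Foxp3, while 342 of them code for protein in Ccdc22. The edges of the 3 Ccdc22 introns inside that exon, and the stop codon and poly(A) hexamer of Ccdc22, are shown because they mark where RNA of the minus strand is spliced and ends on bases that Foxp3 keeps as plain exon. They are on the minus strand of GRCm38 (mm10), from GENCODE M21 transcripts, 5′ to 3′, with the first or last intron bases, the stop codon or the hexamer in capitals.
Donor, chrX:7594940-7594969: tgtgttcaagGTatggagcaggctggcctc
Acceptor, chrX:7594734-7594763: gatcccctttgtcttatcAGgatgctaaga
Donor, chrX:7594664-7594693: cctgcatgagGTgaggggagccatgtgcct
Acceptor, chrX:7594595-7594624: tgtattcttgctgtctccAGaattgcagtc
Donor, chrX:7594510-7594539: tgaggagcagGTgagacctgggactggtaa
Acceptor, chrX:7594158-7594187: tgtgcatcctgttttcttAGattgagacag
Stop codon, chrX:7594040-7594069: ggtccgagaggccTAGagccctgatggatg
Poly(A) hexamer, chrX:7593809-7593838: atcccaAATAAAagagaagttcttctgtgg

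Foxp3 had 707, 725, 858 and 748 counts in replicates 1 to 4, which came to 105.0, 106.6, 96.8 and 99.7 RPKM. Ccdc22 had 4, 10, 5 and 5 counts, or 0.691, 1.71, 0.656 and 0.776 RPKM. Foxp3 was high in every library and Ccdc22 low in every library, with its highest value in replicate 2. Foxp3 held from 98.6% of the counts of the pair in replicate 2 (95% Wilson interval 97.5 to 99.3) to 99.4% in replicates 1 (98.6 to 99.8) and 3 (98.7 to 99.8); these intervals, like those below, cover counting error only. The log2 ratio of counts per kilobase, with 0.5 counts added to each gene, was 7.08, 5.89, 7.07 and 6.87 in replicates 1 to 4, with a mean of 6.73 ± 0.56 (SD, n = 4). Counting error alone would give an SD of 0.60. Whether these counts are RNA of the gene named was not tested, as said above. Where they are, fewer cells of a type and less RNA per cell cannot be told apart in bulk RNA. This holds for every marker here.

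Other genes of the same strand bear on this pair. Gm36995, a transcript on the strand of Ccdc22, shares 2957 of the 3427 exon bases of Ccdc22 (86.3%) and had no count in any library, and the header records no option for counting a fragment in more than 1 gene. Of the 590 bases shared with Foxp3, 373 are also exon of Gm36995. With length taken over the 470 bases of Ccdc22 that no other gene on its strand holds, an alternative chosen after seeing the data, Ccdc22 came to 6.99 ± 3.68 RPKM and Foxp3 to 109.3 ± 4.89 RPKM (SD, n = 4), and the log2 ratio fell from 6.73 to 3.96 ± 0.56. Foxp3 shares 267 exon bases (6.69%) on its own strand with Flicr, a long noncoding RNA known to act on the Foxp3 locus. Flicr had 25, 38, 31 and 18 counts in replicates 1 to 4, far below Foxp3 in each.

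Alas2 (plus strand, chromosome X, 150547375 to 150570638) lies wholly within the outer bounds of Apex2 (minus strand, 150519519 to 150589868), because some Apex2 transcripts have a distant last exon beyond Alas2. The exon that meets Alas2 is the long 3821-base one of Apex2, and it covers the whole last exon of Alas2, 311 bases. Of these, 161 code for protein in Alas2 and none in Apex2. The stop codon and poly(A) hexamer of Alas2, on the plus strand, and the hexamer at which the transcript Apex2-203 ends, on the minus strand, are shown with those letters in capitals because Alas2 ends within the shared bases while Apex2-203 runs on past them.
Alas2 stop codon, chrX:150570476-150570505: taccacctatgctTAAggagccagctgcct
Alas2 hexamer, chrX:150570590-150570619: tctgaaAATAAAgagcaacttgaaacattc
Apex2 hexamer, chrX:150568862-150568891: tcgcacATTAAActctgatatattttctca

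Alas2 had 14, 20, 43 and 33 counts in replicates 1 to 4, or 3.45, 4.88, 8.05 and 7.3 RPKM. Apex2 had 11, 12, 31 and 16 counts, or 0.745, 0.805, 1.6 and 0.973 RPKM. Both genes were highest in replicate 3 and lowest in replicate 1, and no library of Alas2 reached down to Apex2. The log2 ratio per kilobase was 2.20, 2.58, 2.33 and 2.89, with a mean of 2.50 ± 0.30 (SD, n = 4), against an SD of 0.47 from counting error. It rests on the long annotation of Apex2: the 8744 exon bases include the distant exon, and with the longest coding transcript of each gene, 2037 bases for Alas2 and 4742 for Apex2, the ratio was 1.85 ± 0.30 (SD, n = 4). Without length the ratio of the counts was 0.63 ± 0.30 on the log2 scale, and the share of the counts in Alas2 was lowest in replicate 1 at 56.0% (95% Wilson interval 37.1 to 73.3) and highest in replicate 4 at 67.3% (53.4 to 78.8). The pair had 25 to 74 counts in a library, fewer than any of the other 4 pairs.

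Il12rb2 (minus strand, chromosome 6, 67291318 to 67376188) and Serbp1 (plus strand, 67238176 to 67297736) also meet tail to tail. The last exon of Serbp1, 13834 bases long, covers the last 2 exons of Il12rb2 in the annotation and shares 1519 bases with them, 40% of the exon bases of Il12rb2 and 7.55% of those of Serbp1. Of the shared bases 631 code for protein in Il12rb2 and none in Serbp1. In GENCODE M21 only the transcript Serbp1-201 reaches the shared bases, while the other Serbp1 transcripts end at 67284311 or before. The stop codon of Il12rb2 and the hexamers near the ends of both transcripts are shown, with those letters in capitals, since the Il12rb2 transcript ends inside the last exon of Serbp1 while Serbp1 ends beyond the shared bases. The first pair of sequences is on the minus strand and the last on the plus strand.
Il12rb2 stop codon, chr6:67292189-67292218: gagtaatgaggctTGAtactagaaagccaa
Il12rb2 hexamer, chr6:67291318-67291347: tctcagctcATTAAActcatttaaagacct
Serbp1 hexamer, chr6:67297707-67297736: aatggttgAATAAAtttatcctatcactgc

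Il12rb2 had 96, 94, 143 and 99 counts in replicates 1 to 4, or 15, 14.5, 17.0 and 13.9 RPKM. Serbp1 had 494, 454, 471 and 727 counts, or 14.5, 13.2, 10.5 and 19.2 RPKM. Per kilobase the genes stood side by side and their libraries overlapped, with Il12rb2 the higher in replicates 1, 2 and 3 and Serbp1 in replicate 4. The log2 ratio per kilobase was 0.05, 0.14, 0.69 and -0.46 in replicates 1 to 4, with a mean of 0.10 ± 0.47 (SD, n = 4), where counting error alone would give an SD of 0.15. The level of Serbp1 rests on 20117 exon bases, which include the 13834-base last exon. With the longest coding transcript of each gene, which for Serbp1 also reaches the shared bases, the ratio was 0.07 ± 0.47 (SD, n = 4). No level was computed with the shorter Serbp1 transcripts. The direction is set by length and by 1 library. The ratio of the counts without length was -2.30 ± 0.47, with Serbp1 higher in all 4 libraries, and the ratio per kilobase without replicate 3 was -0.09 ± 0.33 (SD, n = 3). Il12rb2 held from 12% of the counts of the pair in replicate 4 (95% Wilson interval 9.94 to 14.4) to 23.3% in replicate 3 (20.1 to 26.8).

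Ptgdr2 (plus strand, chromosome 19, 10937160 to 10942511) and Ccdc86 (minus strand, 10941481 to 10949266) meet tail to tail over 1031 bases, 39.0% of the exon bases of Ptgdr2 and 17.9% of those of Ccdc86. The shared bases code for protein in neither gene. The hexamers at both ends are shown, on the plus strand for Ptgdr2 and on the minus strand for Ccdc86, with the hexamer in capitals. Both hexamers lie in shared bases, and each transcript ends inside the last exon of the other.
Ptgdr2 hexamer, chr19:10942473-10942502: gataccAATAAAcacctctgcaatagagca
Ccdc86 hexamer, chr19:10941484-10941513: tgcaagATTAAAgtgttttaaaaggactgc

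Ptgdr2 had 173, 215, 202 and 175 counts in replicates 1 to 4, or 38.7, 47.7, 34.4 and 35.2 RPKM. Ccdc86 had 25, 10, 14 and 22 counts, or 2.56, 1.02, 1.09 and 2.03 RPKM. Ptgdr2 was above Ccdc86 in every library, and the library with the highest Ptgdr2, replicate 2, had the lowest Ccdc86. The log2 ratio per kilobase was 3.89, 5.49, 4.93 and 4.09, with a mean of 4.60 ± 0.74 (SD, n = 4), against an SD of 0.37 from counting error. With the longest coding transcripts, 2644 bases for Ptgdr2 and 3003 for Ccdc86, the mean was 3.66 ± 0.74, and without length 3.47 ± 0.74 (SD, n = 4). Ptgdr2 held from 87.4% of the counts of the pair in replicate 1 (95% Wilson interval 82.0 to 91.3) to 95.6% in replicate 2 (92.0 to 97.6).

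Csf1r (plus strand, chromosome 18, 61105572 to 61132149) and Hmgxb3 (minus strand, 61131279 to 61177050) share 871 bases of their last exons, 17.8% of the exon bases of Csf1r and 17.1% of those of Hmgxb3. Of these, 7 code for protein in Hmgxb3 and none in Csf1r. In GENCODE M21 the coding transcript Csf1r-201 ends at 61131134, before the overlap, while Csf1r-202 ends at 61132149 and spans it. Csf1r had 922, 916, 973 and 1018 counts in replicates 1 to 4, or 111.8, 110.0, 89.6 and 110.8 RPKM. Hmgxb3 had 8, 8, 6 and 7 counts, or 0.929, 0.92, 0.529 and 0.729 RPKM. Replicate 3 was lowest for both genes, and the groups were far apart. The log2 ratio per kilobase was 6.82, 6.81, 7.29 and 7.15, with a mean of 7.02 ± 0.24 (SD, n = 4), the largest of the 5 pairs with the exon lengths of the files, against an SD of 0.52 from counting error. Csf1r held from 99.1% of the counts of the pair in replicate 1 (95% Wilson interval 98.3 to 99.6) to 99.4% in replicate 3 (98.7 to 99.7).

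**Figure D2:**
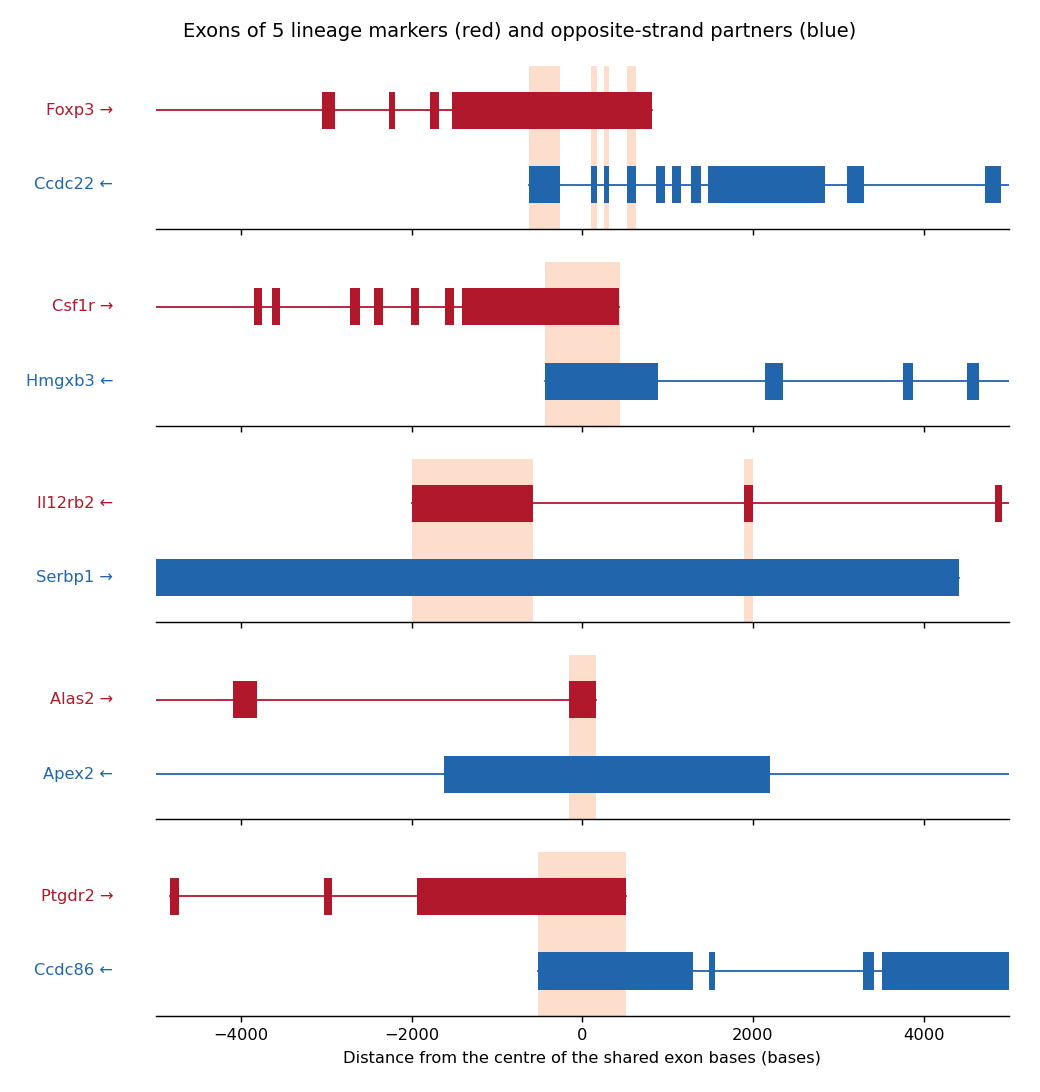
Exons (boxes) of each marker (red) and partner (blue) within 5000 bases of the centre of their shared exon bases, which are shaded; arrows give the strand and the horizontal axis is the distance from that centre in bases. Shared bases lie in the last exon of the marker, and for Il12rb2 also in the exon before it, from 311 bases in Alas2/Apex2 to 1519 in Il12rb2/Serbp1.

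In 4 of the 5 pairs the genes were convergent by their outer bounds, and Alas2 was nested in Apex2. Where shared bases code for protein, they did so in the partner for Foxp3/Ccdc22 and Csf1r/Hmgxb3, with 342 and 7 bases, and in the marker for Il12rb2/Serbp1 and Alas2/Apex2, with 631 and 161 bases. No base coded for protein in both genes of a pair. If every count of a marker lay in the shared bases, the level there would run from 37.7 ± 3.32 RPKM for Il12rb2 and 45.7 ± 16.5 for Alas2 to 591.9 ± 59.7 for Csf1r and 689.6 ± 30.9 for Foxp3 (SD, n = 4). The tables give 1 count per gene and not per exon, so how the counts divide between shared and other exons is not known.

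**Figure D3:**
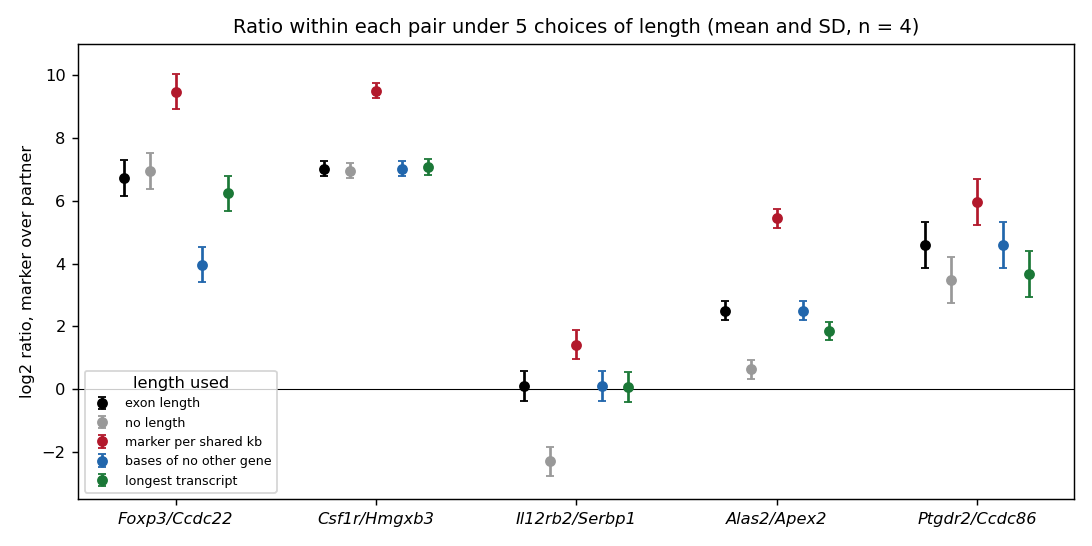
Log2 ratio of the marker over its partner in each pair, as the mean and SD of 4 libraries (vertical axis), with 5 choices of length. Csf1r/Hmgxb3 moves only when the marker is scaled to the shared bases (9.51), Foxp3/Ccdc22 drops to 3.96 over bases of no other gene on the strand, and Il12rb2/Serbp1 lies on either side of 0.

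The 5 ratios were set beside those of all 1388 pairs of protein-coding genes with shared exon bases on opposite strands, which hold 2594 genes. Of these pairs 1207 had 20 or more counts in all, with a median absolute log2 ratio per kilobase of 3.20 (quartiles 1.58 and 5.06), and 53.0% lay above 3. Csf1r/Hmgxb3 ranked 108 and Foxp3/Ccdc22 ranked 135 from the top. Over bases of no other gene on the strand Foxp3/Ccdc22 was 3.96, between the median and the upper quartile of the pairs. Ptgdr2/Ccdc86 was at rank 374, Alas2/Apex2 at rank 752 and Il12rb2/Serbp1 at rank 1187, near the bottom. A marker above its partner in all 4 libraries, or below it in all 4, was seen in 4 of the 5 pairs, beside 91.1% of the 1207. An unequal pair was common in these libraries.

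**Figure D4:**
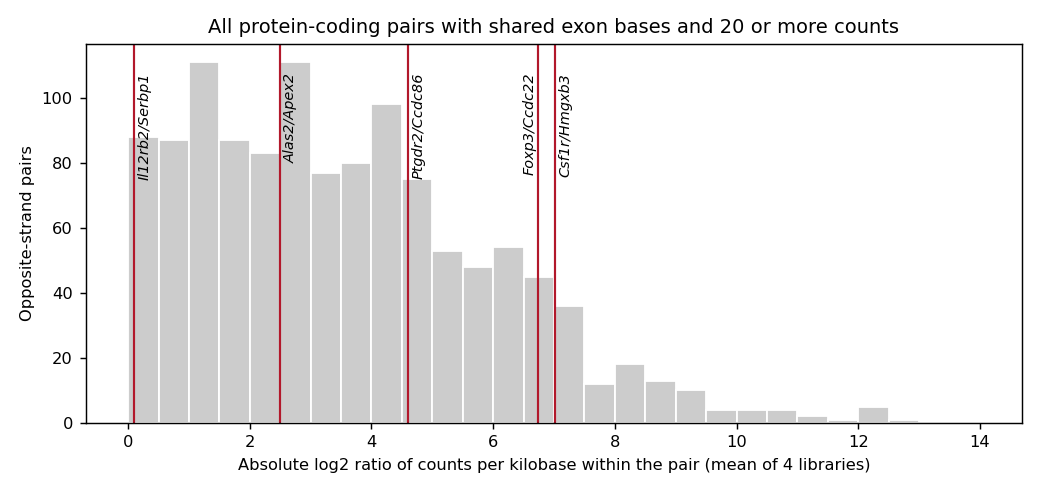
Number of opposite-strand protein-coding pairs (vertical axis) by the absolute log2 ratio of counts per kilobase within the pair (horizontal axis, mean of 4 libraries), for 1207 pairs with 20 or more counts; red lines mark the 5 pairs. Foxp3/Ccdc22 at 6.73 (3.96 over bases of no other gene on the strand) and Csf1r/Hmgxb3 at 7.02 lie above the upper quartile of 5.06 with the exon lengths of the files, and Il12rb2/Serbp1 at 0.10 lies at the lower end.

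Over all protein-coding genes, those with an exon opposite another gene had counts more often. Of the 4801 such genes 65.2% had a count in all 4 libraries, beside 31.6% of the 16963 without one. The 4801 genes include all 10 described here. Of these, 6 have between 10% and 20% of their exon bases opposite another gene: Foxp3, Ccdc22, Csf1r, Hmgxb3, Alas2 and Ccdc86. The 901 protein-coding genes in that range had a median of 1.65 RPKM (quartiles 0.105 and 16). With the exon lengths of the files, Foxp3 and Csf1r lay above the upper quartile while Hmgxb3 and Ccdc22 lay below the median. Over bases of no other gene on its strand, a length not applied to the 901 genes, Ccdc22 was at 6.99 RPKM. The part that RNA of a partner has in the count of a marker was not tested.

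The marker genes were then read against other genes of their lineages, from lists chosen with earlier results of these data known. Foxp3 stood above the other 10 regulatory T cell genes, whose median was 1.68 RPKM. Next came Tnfrsf18, a costimulatory receptor, at 7.21 ± 2.14 RPKM with an exon opposite Gm16008, and Il2ra, the interleukin 2 receptor alpha chain, at 5.31 ± 1.12 RPKM with none (SD, n = 4). Of those 10, 8 had a count in all 4 libraries, and Ikzf2, a transcription factor of these cells, had none in any. Ikzf2 has 144 exon bases opposite Gm29114. The summed level of the 10 ran from 75.1 to 111.1 CPM, against 386.0 to 425.2 for Foxp3 alone.

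Csf1r stood apart from the macrophage list. Of the other 11 genes 8 had no count in any library, Adgre1, Itgam, Lyz2, Mrc1 and Spi1 among them, and none of the 11 has an opposite exon. The 2 highest were Cd68, a lysosomal glycoprotein, at 3.08 ± 1.27 RPKM and Tyrobp, a signalling adaptor, at 0.368 ± 0.428 RPKM (SD, n = 4), and the 11 together ran from 1.78 to 6.38 CPM against 437.8 to 546.0 for Csf1r. A count of 0 allows up to 3 counts, which is from 1.35 to 1.78 CPM in these libraries. Over all 21764 protein-coding genes 9460 had no count in any library, as had 50.2% of the 16963 with no opposite exon. Of 7 genes around Csf1r signalling, Csf1 and Il34, the ligands of the receptor, had no count. Il34 has 97 exon bases opposite other genes, and Csf1 has none. The highest of the 7 were the phosphatase gene Ptpn6 at 12.1 ± 3.99 RPKM, with an exon opposite Gm20531, and the adaptor gene Grb2 at 2.23 ± 1.46 RPKM (SD, n = 4).

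Alas2 likewise had the highest level of the erythroid list, in which 6 of the other 10 genes had no count, the globin genes Hba-a1, Hba-a2, Hbb-bs and Hbb-bt among them. The transcription factor gene Klf1 was at 0.757 ± 0.326 RPKM and Hemgn, a nuclear protein gene of red cell precursors, at 0.117 ± 0.136 RPKM (SD, n = 4), and the 10 summed to at most 2.25 CPM. None of the 10 has an opposite exon, and of all protein-coding genes without one 50.2% had no count. In the heme synthesis list Alas2 came second to Ppox, the enzyme of the step before the last, at 81.7 ± 11 RPKM with 791 bases opposite B4galt3. Uros, another enzyme of the pathway with no opposite exon, followed at 2.25 ± 0.473 RPKM (SD, n = 4). Alas1, the form of the first enzyme that all cells use, was at 1.06 ± 0.448 RPKM (SD, n = 4). Alas1 has 465 exon bases opposite 4930500F10Rik.

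Il12rb2 had the highest level of the T-helper 1 list, whose other 13 genes had a median of 0.201 RPKM. The chemokine gene Ccl3 was at 1.22 ± 0.338 RPKM and Runx3, a transcription factor gene, at 1.06 ± 0.647 RPKM (SD, n = 4). Tbx21, which defines the lineage, and Cxcr3 were among the 5 of the 13 with no count, beside 9460 of all 21764 protein-coding genes. The share of this list without a count was thus not above that of all genes. Il12rb1, the other chain of the same receptor, had 4, 12, 3 and 8 counts in replicates 1 to 4 with no opposite exon. Ptgdr2 led the T-helper 2 receptor list. The chemokine receptor gene Ccr4, without an opposite exon, followed at 7.35 ± 1.71 RPKM, and Il17rb, a receptor for interleukin 25, at 2.70 ± 1.01 RPKM (SD, n = 4). The 8 genes of that list other than Ptgdr2 had a median of 1.98 RPKM. Of these, 2 had no count in any library, Il1rl1 and Ccr3, neither with an opposite exon. Of 6 other genes of prostaglandin D2 synthesis and sensing, 4 had no count, the other receptor gene Ptgdr among them. Ptgdr has 705 exon bases opposite Gm16976, and Ptgs1, also without a count, has 148 opposite Gm43621. Ptgs2 and Pla2g4a, with no count either, have no opposite exon. The synthase genes Hpgds and Ptgds were at 1.54 ± 0.307 and 0.307 ± 0.227 RPKM (SD, n = 4).

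Lists were read for 2 of the 5 partners, Ccdc22 and Apex2. None of their other genes was without a count, beside 9460 of all 21764 protein-coding genes that were. Of the 14 others in the Ccdc22 list 9 had a count in all 4 libraries. The Apex2 list had 9 of 12, beside 39% of all protein-coding genes. Some were near the floor, such as Commd9 with 4 counts in all and Mutyh with 5. In the 14 other genes of the complex of Ccdc22 the median was 0.908 RPKM, near the 0.959 RPKM of Ccdc22 itself with the exon lengths of the files. The 2 highest were Vps35l at 33.4 ± 3.84 RPKM, opposite Knop1 by 745 bases, and Vps29 at 19.5 ± 4.17 RPKM, opposite Fam216a by 340 bases, both sorting subunits (SD, n = 4). Of 12 other base excision repair genes the highest were the nuclease gene Apex1 at 41.4 ± 7.47 RPKM, opposite Pip4p1 by 877 bases, and the replication clamp gene Pcna at 16 ± 4.5 RPKM with no opposite exon (SD, n = 4). As a reading of the cell type, within the limit on the counted strand given above, every library held counts of each of the 14 genes of T cell identity, 12 of them with no opposite exon, with a median of 7.29 RPKM and the receptor constant genes Trac at 15.2 ± 5.73 and Trbc2 at 10.7 ± 4.61 RPKM (SD, n = 4). The median over all protein-coding genes was 0.087 RPKM.

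**Figure D5:**
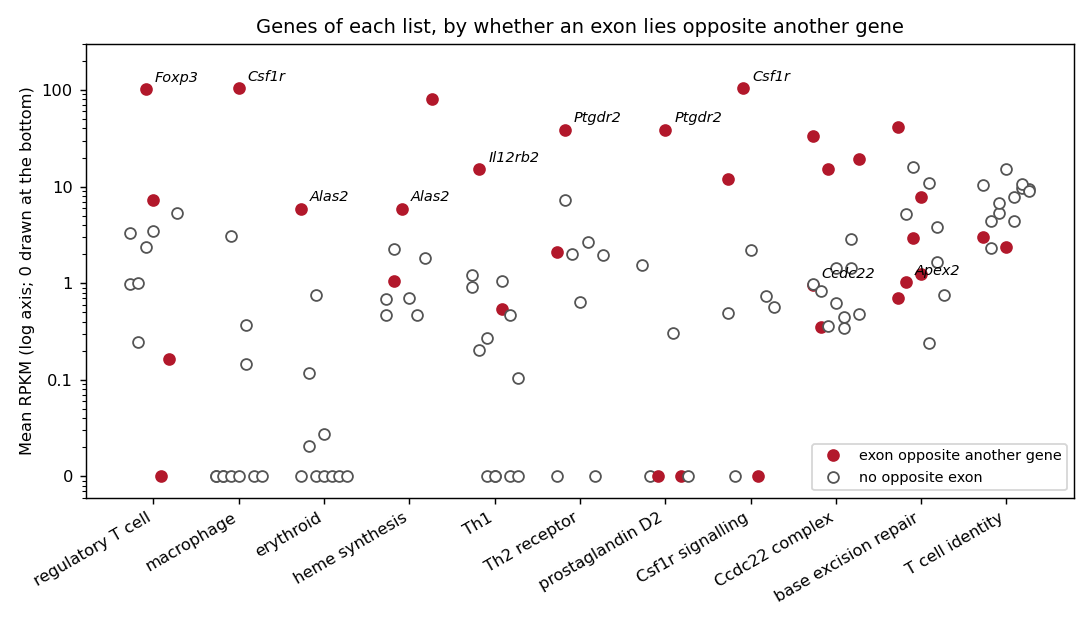
Mean RPKM over 4 libraries (vertical axis, log scale, with 0 drawn at the bottom) of the genes of 11 lists, filled red where an exon lies opposite another gene and open where none does; the 10 genes are named where they belong to a list. Foxp3, Csf1r, Alas2, Il12rb2 and Ptgdr2 lie at the top of the lists of their lineages, and in the heme synthesis list Ppox at 81.7 RPKM lies above Alas2.

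For each marker the 2 protein-coding genes nearest in level over the 4 libraries were found by the root mean square difference of log2 RPKM, with 0.5 counts added. Kif20a and Fanci were nearest to Foxp3, at differences of 0.02 and 0.07, and Bbip1 was near Csf1r, at 0.08. Kif20a, a mitotic motor gene, has 1259 bases opposite Cdc23, and its 4 libraries held 670, 704, 810 and 706 counts. Gba2 and Glis2 were nearest to Il12rb2, Armc6 and Rnft1 to Alas2, and Gimap1 and B3gnt8 to Ptgdr2, at differences from 0.05 to 0.13. Each of the genes named here has an exon opposite another gene. So have 1434 of the 2256 protein-coding genes at 5 RPKM or more, or 63.6%. That limit was not matched to the higher levels of the markers other than Alas2. Above 10 RPKM lay 2.25% of protein-coding genes without an opposite exon. Of those with one it was from 12.5% to 42%, rising with the share of exon bases opposite another gene.

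The spread between replicates was not used to choose the genes and could be tested. Of the 10 genes 8 passed the filter on low counts, all 5 markers and the partners Serbp1, Apex2 and Ccdc86; Ccdc22 and Hmgxb3 did not. A one-sided test for variation beyond what abundance predicts was computed from edgeR's quasi-likelihood fit, and is not a test that edgeR itself supplies. In it, 0 of the 8 passed at an adjusted p under 0.05, beside 22 of the 4918 genes tested (0.447%). By limma on log2 CPM 0 of the 8 passed too. At an unadjusted p under 0.05 there was 1 of the 8 in edgeR, beside 281 of the 4918 genes (5.71%), and 0 of the 8 in limma, beside 276. That gene was Serbp1, with 292.5, 266.3, 211.9 and 386.4 CPM in replicates 1 to 4 and an edgeR p of 0.0435, adjusted 0.848. Without replicate 3 its unadjusted edgeR p was 0.11 and without replicate 4 it was 0.274, while Ccdc86 and Apex2 came to 0.038 and 0.0461 without replicate 4. Foxp3 varied least in relative terms, with 418.7, 425.2, 386.0 and 397.6 CPM and an adjusted edgeR p of 0.991. The highest library of Alas2 was 2.33 times its lowest and that of Apex2 2.14 times, at adjusted edgeR p of 0.965 and 0.896.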

How the data were processed

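Total RNA-seq counts of 4 libraries were used, 1 table per library. The deposited values are raw counts per gene that the authors made with featureCounts 1.4.6-p4 on GENCODE M13 exons and mm10, with paired reads, both ends aligned and strand option 1, per the file headers. The header names an input written by a program called star2; other steps are not given in the sources used here. GENCODE M21, also on mm10, gave symbols, types, coding bases and transcript sequences, and 99.6% of the 50600 gene identifiers were found in it. Exons were merged per gene, and bases shared across strands were found with bedtools 2.31.1. No genome and no protein table was used. Counts of the opposite strand were not used here.

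RPKM was computed from the counts, the deposited exon length and the library total. Ratios used 0.5 added counts. Shares carry 95% Wilson intervals (scipy 1.17.1), for counting error only. The spread of each gene over the replicates was compared with its trend in edgeR 4.0.16 (a robust quasi-likelihood fit with an intercept, filterByExpr and TMM, 3 residual degrees of freedom, upper tail over the trended prior, Benjamini-Hochberg over all tested genes), after the step was tested on simulated data. Alternatives used DESeq2 1.42.0 size factors, limma 3.58.1, other filters, other lengths and pseudocounts, and each replicate left out. R 4.3.3, Python 3.11.15, pandas 2.3.3 and matplotlib 3.10.9 were used.

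The 10 genes and the 11 lists (121 genes, of which Ahsp was not matched) were chosen with earlier results of these data known. Named beside the 10 are the 2 highest other genes of each list, the 2 genes nearest in level to each marker (for Csf1r 1 of them is not reported here), and, chosen after their values were seen, same-strand and partner genes and some list members at 0 or of special role.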

Additional observations from a re-analysis of the deposited data

Results flagged for a closer look

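Among 15 sets of 4 values checked, the CPM of the 10 genes and the 5 ratios, 2 had an end value far from the other 3, by Dixon's criterion at 95%; chance gives such a value in about 1 set in 20. Csf1r was at 437.8 CPM in replicate 3, below the other 3 libraries, which lay between 537.2 and 546.0. In replicate 3 the ribosomal RNA gene CT010467.1 held 9.4% of the counts, against 1.29% to 5.05% in the others. With that gene left out of the totals, an alternative chosen after seeing the data, Csf1r was at 483.2 against 550.0 to 565.8, and the gap over the range went from 0.919 to 0.809; the criterion was no longer met. Ccdc22 was at 5.86 CPM in replicate 2, from 10 counts, above the other 3 libraries at 2.25 to 2.66, from 4 or 5 counts each, and the gap over the range was 0.920 without CT010467.1.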

How the results depend on the processing

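With the marker scaled to the shared bases the mean log2 ratios were 9.48 for Foxp3/Ccdc22, 9.51 for Csf1r/Hmgxb3, 1.42 for Il12rb2/Serbp1, 5.45 for Alas2/Apex2 and 5.96 for Ptgdr2/Ccdc86; this scaling raises every ratio by construction. Without length they were -2.30 for Il12rb2/Serbp1, which turned its direction, 0.63 for Alas2/Apex2 and 3.47 for Ptgdr2/Ccdc86. With 3 added counts Csf1r/Hmgxb3 was 6.62. Over bases of no other gene on the strand Foxp3/Ccdc22 was 3.96, and with the longest coding transcript Alas2/Apex2 was 1.85 and Ptgdr2/Ccdc86 3.66; both lengths were chosen after seeing the data. Leaving out each replicate in turn gave 6.61 to 7.0 for Foxp3/Ccdc22, 6.93 to 7.09 for Csf1r/Hmgxb3, -0.09 to 0.29 for Il12rb2/Serbp1, 2.37 to 2.60 for Alas2/Apex2 and 4.30 to 4.84 for Ptgdr2/Ccdc86. The other 4 pairs kept their direction under every length, pseudocount and left-out replicate tried.

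The number of genes varying between replicates was 22 in the edgeR fit and with DESeq2 size factors, 18 with limma, 2 with library totals only, 56 of 17431 genes with no filter on low counts, and 11 (without replicate 4) to 21 with a replicate left out; the cause was not tested. In each of these, 0 of the 8 genes tested, or of all 10 where no filter was used, passed, with adjusted p from 0.667 to 0.999. No paired analysis was possible because the libraries form 1 group. At these depths the partners Ccdc22 and Hmgxb3, with 24 and 29 counts in all, limit the precision of their ratios.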
